A study of Rattus norvegicus with 16 samples.

Results

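The globin genes encode the protein chains of haemoglobin, and 9 globin symbols had a probe set of their own on rat gene arrays hybridised with RNA of whole embryonic kidneys. The members were chosen by their gene symbols (every probe set with 1 symbol that starts with Hba, Hbb or Hbg, or is Hbe1, Hbe2, Hbz or Hbq1), after their difference between the strains on these same arrays was known. The strain differences of the members are therefore given as a description and without p-values. The rule found 6 of 21371 probe sets in the table with 1 value per gene and 34 of 213067 probe sets in the table with 1 value per exon probe set. Of the 9 symbols, 6 had a probe set at gene level, 7 at exon level and 4 at both. Hba-a1 had no probe set of its own. A further 3 gene-level probe sets carried a pair of globin symbols each and were left out of every count.

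The arrays compared male kidneys of Munich Wistar Frömter rats (MWF), an inbred strain with inherited albuminuria, at embryonic day E15.5 with male kidneys of spontaneously hypertensive rats (SHR) at embryonic day E16.0, 4 samples per strain. The exon-level table summarises the same 8 hybridisations as the gene-level table. The difference in strain cannot be told apart from the difference in embryonic day, and the labels do not say whether samples came from separate animals or litters, so the spread between them may be technical. All values are deposited log2 intensities, and differences are MWF minus SHR on that scale.

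Haemoglobin carries oxygen as a tetramer of alpha-like and beta-like chains. Primitive red cells of the yolk sac make embryonic chains (zeta in the alpha family, epsilon and gamma in the beta family), and definitive red cells of the fetal liver make mostly adult alpha and beta chains, a change best known from mouse and human. Whole kidneys are collected with the blood in their vessels. In a bulk sample, fewer red cells and less globin RNA per red cell cannot be told apart. The symbols are grouped here by these names into adult (Hba-a2, Hba-a3, Hbb and Hbb-b1), embryonic (Hbz, Hbg1, Hbe1 and Hbe2) and theta (Hbq1).

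The genes form 2 clusters. In the RefSeq annotation of the rat assembly GRCr8, the alpha cluster on chromosome 10 runs in the order Hbq1, Hba-a3, Hba-a2, Hbq1b, Hba-a1 and Hbz, and the beta cluster on chromosome 1 in the order Hbb-bs, Hbb-b1, Hbbl1, Hbb-b2, Hbb, Hbe1l-ps1, Hbg1, Hbe2 and Hbe1. Several are near-identical copies. The RefSeq promoter windows of 300 bases were 96.0% identical between Hba-a1 and Hba-a2 and 97.7% identical between Hbb-b1 and Hbb-b2, against 70.2% between Hba-a3 and Hba-a2 and 64.0% between Hbb-b1 and Hbb. Among Hba-a1 and the adult and embryonic symbols grouped above, windows were available for 7 (Hba-a1, Hba-a2, Hba-a3, Hbb, Hbb-b1, Hbe1 and Hbz). Hbg1 and Hbe2 had none.

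For 6 members with both a window and a measurement, the 130 bases before and 20 bases after the annotated start are printed from RefSeq, build GRCr8, to show the core promoters of adult and embryonic members of both clusters, whether their intensities differed widely (Hba-a3) or hardly (Hbe1). Capitals mark every match, on either strand, to the letters CCAAT of the CCAAT box, to the letters CACCC of the CACCC box, to the letters GATAA of the GATA motif and to the letters ATAAA of a TATA-like box. No 2 matches overlap, though in Hbb the CCAAT letters stand side by side on opposite strands.
Hba-a3, chr10:15816924-15817073, minus strand: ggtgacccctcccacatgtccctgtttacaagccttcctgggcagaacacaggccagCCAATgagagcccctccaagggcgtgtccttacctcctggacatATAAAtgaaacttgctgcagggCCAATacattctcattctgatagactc
Hba-a2, chr10:15829119-15829268, minus strand: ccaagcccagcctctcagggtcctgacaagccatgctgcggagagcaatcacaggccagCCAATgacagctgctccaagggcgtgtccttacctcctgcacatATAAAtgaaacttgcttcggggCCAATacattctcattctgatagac
Hbz, chr10:15849738-15849887, minus strand: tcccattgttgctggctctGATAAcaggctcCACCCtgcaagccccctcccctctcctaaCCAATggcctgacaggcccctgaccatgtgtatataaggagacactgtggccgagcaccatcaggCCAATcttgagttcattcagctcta
Hbb-b1, chr1:167643501-167643650, minus strand: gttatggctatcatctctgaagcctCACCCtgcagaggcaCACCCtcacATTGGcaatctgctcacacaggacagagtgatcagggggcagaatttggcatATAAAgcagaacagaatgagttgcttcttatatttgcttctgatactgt
Hbb, chr1:167663702-167663851, minus strand: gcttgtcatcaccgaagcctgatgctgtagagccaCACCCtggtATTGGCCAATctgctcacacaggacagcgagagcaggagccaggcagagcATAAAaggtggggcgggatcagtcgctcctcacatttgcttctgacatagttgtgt
Hbe1, chr1:167696261-167696410, minus strand: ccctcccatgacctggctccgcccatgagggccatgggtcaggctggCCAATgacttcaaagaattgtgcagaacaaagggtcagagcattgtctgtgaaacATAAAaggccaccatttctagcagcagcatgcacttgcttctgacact
CCAAT was found in 6 of the 6 windows, against 23.2% of the same 150 bases in 33469 rat promoters. ATAAA was found in 5 (25% of all promoters), CACCC in Hbz, Hbb-b1 and Hbb (34.7% of all promoters), and GATAA in Hbz alone (13.6%). These matches describe letters in a window, and no binding was measured.

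Among the adult alpha genes, Hba-a3 had the largest MWF over SHR difference of all 21371 gene-level probe sets. Its values were 10.52, 10.76, 9.80 and 10.33 in MWF replicates 1 to 4, against 7.84, 8.13, 7.57 and 7.94 in SHR replicates 1 to 4. The lowest MWF array stood 1.67 above the highest SHR array. The difference of 2.48 ± 0.20 (limma SE) is a 5.59-fold higher intensity in MWF, and it lay between 2.35 and 2.67 when each array was left out in turn. All SHR values lay below the gene-level array medians of 8.17 to 8.21. They may hold little signal of the gene, so the fold is uncertain. The exon-level annotation has no probe set under Hba-a3, so this reading rests on 1 gene-level probe set.

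Hba-a2, another adult alpha gene, had 7 exon-level probe sets, all above 0 in MWF minus SHR, but their sizes differed by brightness. The dimmest, with a mean of 10.15, read 11.23, 11.07, 9.85 and 10.74 in MWF, against 9.64, 10.11, 9.14 and 9.38 in SHR. Its difference was 1.16 ± 0.32, and MWF replicate 3 lay within the range of SHR. A second, at a mean of 12.16, differed by 0.40 ± 0.17. The other 5, with means from 13.45 to 13.69, differed by 0.10 to 0.12. Among these, 2 repeated the values of another probe set exactly, so 5 of the 7 are distinct. In the older annotation of the exon table Hba-a2 may stand for either near-identical copy, since RefSeq lists it as an older name of Hba-a1. The 2 gene-level probe sets that carry both of these alpha symbols differed by 0.38 ± 0.11 and 0.21 ± 0.09, at means of 12.73 and 13.08, with overlapping strains.

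The adult beta genes were also higher in MWF. Hbb-b1 read 11.54, 11.71, 10.69 and 11.39 in MWF, against 9.86, 9.87, 9.65 and 9.45 in SHR, a difference of 1.63 ± 0.20 or 3.09-fold. No MWF array reached down to the SHR range. Hbb read 12.72, 12.89, 12.10 and 12.62 in MWF, against 12.04, 11.96, 11.79 and 11.83 in SHR. Here the strains were separated by a gap of 0.05 only, and the difference was 0.68 ± 0.15 or 1.60-fold. The gene-level probe set that carries a pair of beta symbols differed by 0.67 ± 0.17. All 6 exon-level probe sets annotated to Hbb lay above 0, between 0.54 and 0.86, and in 3 of them every MWF array was above every SHR array. The exon-level annotation has no probe set under Hbb-b1, and closely related beta genes may share probes, so Hbb and Hbb-b1 are uncertain as separate readings.

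**Figure D1:**
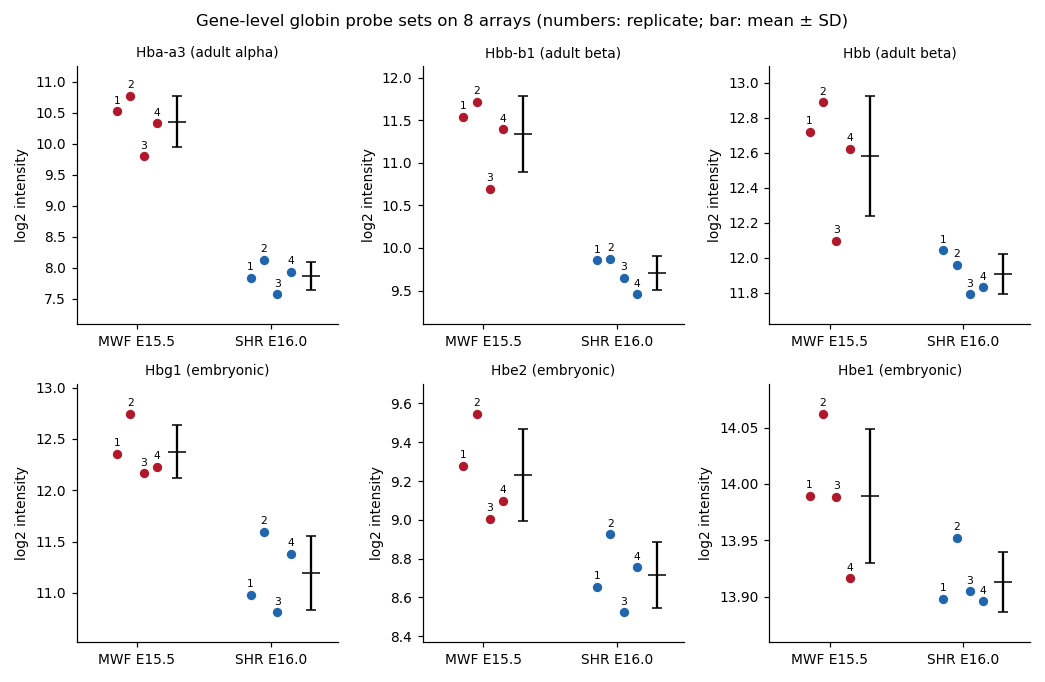
Log2 intensity of the 6 gene-level globin probe sets (vertical axis, own scale in each panel) for 4 MWF arrays at E15.5 (left, red) and 4 SHR arrays at E16.0 (right, blue), with replicate numbers and mean ± SD bars. MWF lies above SHR without overlap for Hba-a3, Hbb-b1, Hbb, Hbg1 and Hbe2, while Hbe1 spans only 13.90 to 14.06 on all arrays.

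Of the embryonic beta-like genes, Hbg1 (gamma) read 12.36, 12.74, 12.17 and 12.23 in MWF, against 10.98, 11.59, 10.81 and 11.38 in SHR. MWF was 1.18 ± 0.19 higher, or 2.27-fold, with no overlap. Its 3 exon-level probe sets gave nearly the same size, 1.10 to 1.24, each without overlap. Within SHR, replicates 2 and 4 lay above replicates 1 and 3.

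Hbe2 (epsilon) read 9.28, 9.55, 9.01 and 9.10 in MWF, against 8.65, 8.93, 8.52 and 8.75 in SHR, a difference of 0.52 ± 0.13 with a gap of 0.08 between the strains. Its 3 exon-level probe sets did not give the same size. The brightest, at a mean of 10.94, read 11.61, 12.04, 11.30 and 11.55 in MWF, against 10.27, 10.53, 10.0004 and 10.26 in SHR, a difference of 1.36 ± 0.17. The others, at means of 9.99 and 5.98, differed by 0.04 ± 0.15 and 0.15 ± 0.13, with overlapping strains. With the per-array median of these 3 probe sets, Hbe2 differed by 0.04.

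Hbe1 (epsilon) showed almost no difference. Its gene-level probe set read 13.99, 14.06, 13.99 and 13.92 in MWF, against 13.90, 13.95, 13.90 and 13.90 in SHR, 0.08 ± 0.05 higher in MWF with overlapping strains. It was the third brightest of all gene-level probe sets, on arrays whose highest values lay between 14.17 and 14.31. Its 3 exon-level probe sets differed by 0.04 to 0.11 at means from 13.72 to 14.15.

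Hbz, the embryonic alpha-like (zeta) gene, was measured at exon level alone. Its 3 probe sets differed by 0.96 to 1.16, each with every MWF array above every SHR array. The probe set with the median difference read 12.08, 12.18, 11.57 and 11.51 in MWF, against 10.05, 11.46, 10.47 and 10.96 in SHR, 1.10 ± 0.30 higher in MWF. SHR replicate 2 lay 0.05 below the lowest MWF array, and SHR replicates 1 and 3 were the lowest, as for Hbg1.

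The theta gene Hbq1, which GRCr8 lists as a pseudogene, had 9 exon-level probe sets at low means of 5.39 to 7.81. Their differences ran from -0.02 to 1.04, 8 of the 9 lay above 0, and 1 of them had no overlap between the strains. That probe set read 8.56, 9.05, 7.79 and 7.94 in MWF, against 7.68, 7.57, 6.71 and 7.21 in SHR, a difference of 1.04 ± 0.31. At such low intensities a probe set may hold little signal of its own gene. Hbq1b, which GRCr8 lists as protein coding, had no probe set under its own symbol. Which of Hbq1 and Hbq1b these probe sets read is therefore uncertain.

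**Figure D2:**
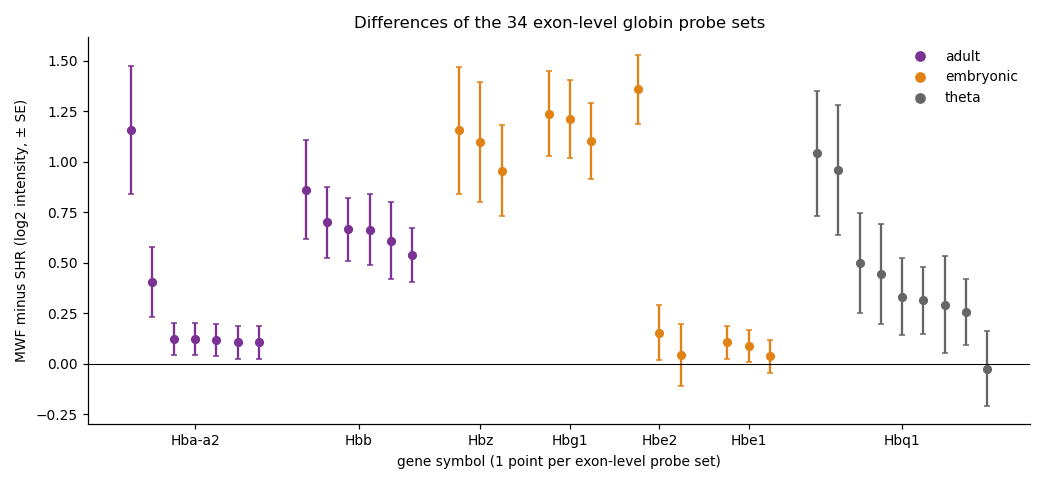
MWF minus SHR in log2 intensity with limma SE (vertical axis) for the 34 exon-level globin probe sets, grouped by gene symbol (horizontal axis) and coloured as adult, embryonic or theta. Hbg1 and Hbz probe sets lie near 1, Hbe1 near 0, and Hba-a2 and Hbe2 hold probe sets of unequal size, from 0.10 to 1.16 and from 0.04 to 1.36.

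Counted together at gene level, 5 of the 6 globin probe sets passed limma's adjusted p of 0.05 as higher in MWF and none as lower, beside 3.18% higher and 3.4% lower among all probe sets. The same 5 (Hba-a3, Hbb-b1, Hbb, Hbg1 and Hbe2) had every MWF array above every SHR array, as did 7.36% of all probe sets. Since the genes were proposed with this contrast known, nothing is read from these counts. Hbb and Hbe2 lost their calls, leaving 3, when a single array was omitted, for every array but MWF replicate 3 and SHR replicate 2. The median difference of the 6 was 0.93, with 0.02 for all probe sets. At exon level 33 of the 34 lay above 0, with a median of 0.47, and 4 passed as higher, all 3 of Hbg1 and 1 of Hbe2, beside 0.892% of all exon-level probe sets. In 13 of the 34, every MWF array was above every SHR array, beside 4.24% of all. Repeated values enter these counts. Of the 34 probe sets 32 are distinct, and the 2 of Hba-a2 among the 13 hold the same values. The exon-level count was 10 without MWF replicate 3 and 2 when MWF replicate 1, 2 or 4 or SHR replicate 1 was omitted instead.

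Differences were small at the top of the intensity range. The 8 exon-level globin probe sets with a mean above 13 (5 of Hba-a2 and 3 of Hbe1) differed by 0.04 to 0.12. The 16 with means between 9 and 13 differed by 0.04 to 1.36, with a median of 0.91. The 10 below 9, of which 9 belong to Hbq1, differed by -0.02 to 1.04, with a median of 0.32. The levels of 13 and 9 were set after the values were seen. Over all exon-level probe sets above 13, the median size of a difference was 0.05, against 0.10 between 9 and 13. Whether the brightest probe sets were near saturation was not tested.

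**Figure D3:**
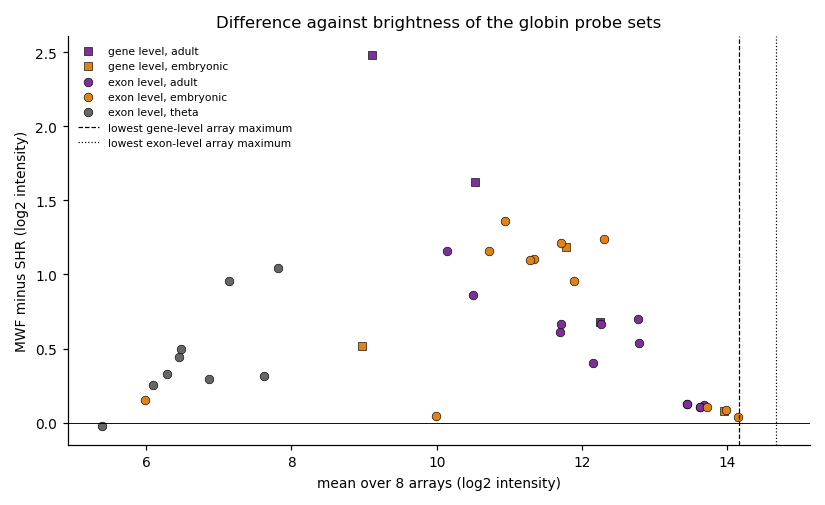
MWF minus SHR (vertical axis, log2) against the mean over 8 arrays (horizontal axis, log2 intensity) for the 6 gene-level (squares) and 34 exon-level (circles) globin probe sets, with dashed and dotted lines at the lowest array maximum of each table. Probe sets with a mean above 13 all lie at or below 0.12, and the largest difference, 2.48 for Hba-a3, is at a mean of 9.11.

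The comparison of embryonic with adult globins depended on which probe sets were read. At gene level, the mean of Hbg1, Hbe2 and Hbe1 minus the mean of Hba-a3, Hbb and Hbb-b1 was 0.280, 0.328, 0.858 and 0.301 in MWF, against 1.264, 1.504, 1.409 and 1.602 in SHR. The strains did not overlap, and the difference was -1.003, so the adult set was further above SHR than the embryonic set. With the median of exon-level probe sets per symbol (Hbz, Hbg1, Hbe2 and Hbe1 against Hba-a2 and Hbb), the difference was 0.22 in the opposite direction, at -0.88 ± 0.14 in MWF and -1.09 ± 0.30 in SHR (SD, n = 4 each), with overlap. The genes compared were not the same. Hba-a3 (MWF minus SHR of 2.48) and Hbb-b1 (1.63) entered at gene level alone, and Hba-a2 (0.12) and Hbz (1.10) at exon level alone. These data therefore give no settled direction for the balance of embryonic and adult chains.

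Within MWF most members deviated the same way on an array. MWF replicate 3 was the lowest MWF array for Hba-a3, Hbb-b1, Hbb, Hbg1 and Hbe2, with deviations from the strain mean of -0.56, -0.64, -0.49, -0.21 and -0.23. MWF replicate 2 was the highest for all 6. In SHR, replicate 2 lay above and replicate 3 below the strain mean for all 6, while replicates 1 and 4 differed in sign between genes. Replicate 2 was 0.40 above the strain mean for Hbg1 but 0.05 above it for Hbb, and replicate 4 was 0.19 above it for Hbg1 but at -0.25 for Hbb-b1.

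Genes of red cells other than globins lay mostly above 0 in MWF minus SHR, and few passed the test in the fit used here. Of 68 genes in 5 lists (haem synthesis, iron supply, cell membrane, enzymes with the alpha-globin chaperone, and erythroid transcription factors with the erythropoietin receptor), 60 were measured. Of these, 48 lay above 0, with a median of 0.18 (the share over the whole gene-level table was 56.3%). By list, the median was 0.12 for haem synthesis, 0.14 for iron supply and 0.32 for the cell membrane. It was 0.04 for enzymes with the chaperone and 0.31 for erythroid factors with the receptor. The lists also hold genes that other cells make, such as Lmo2, so the pooled values do not read red cells alone. By limma, 3 of the 60 were higher and 2 lower at an adjusted p under 0.05, beside 3.18% higher and 3.4% lower among all probe sets. In 5 every MWF array was above every SHR array, 8.33% of the 60 beside 7.36% of all. The number called was 12 without MWF replicate 3, 9 without SHR replicate 2, and 3 without MWF replicate 1 or SHR replicate 4. With all arrays the number was 12 under array weights and 20 with the kidney number as a replicate block. The block was not kept, and whether the kidneys are paired is not settled.

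In haem synthesis 1 of 12 rose and none fell. Tmem14c, a mitochondrial transporter of haem precursors, was higher by 0.85 ± 0.06 (limma adjusted p = 8.44e-05). Alas2, the first and rate-limiting enzyme of the pathway in red cells, was at 0.80 ± 0.22 without passing (limma adjusted p = 0.064). Of 14 membrane genes 1 rose, the Rh antigen gene Rhd, by 1.68 ± 0.33 (limma adjusted p = 0.0178). Its call was lost without MWF replicate 1 (adjusted p = 0.05) or SHR replicate 4 (adjusted p = 0.0553). The anion exchanger gene Slc4a1 was at 1.14 ± 0.30 and the Rh-associated glycoprotein gene Rhag at 1.30 ± 0.35, neither passing (limma adjusted p = 0.0546 and 0.0591).

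Among 13 red cell enzymes and the chaperone none passed. Ahsp, which binds free alpha chains, read 11.54, 11.64, 9.93 and 10.76 in MWF, against 10.28, 10.30, 9.34 and 9.49 in SHR, with overlap (1.12 ± 0.39, limma adjusted p = 0.121). Car2, a carbonic anhydrase gene, was at 0.85 ± 0.31 and Pklr, the red cell pyruvate kinase gene, at 0.46 ± 0.22. Of 10 iron genes, Slc40a1, the iron exporter ferroportin, fell by 0.61 on the log2 scale (limma adjusted p = 0.000616), and none rose. Tfrc, the transferrin receptor through which red cell precursors take up iron, was at 0.21 ± 0.08 without passing.

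Of 11 erythroid factors, the erythropoietin receptor gene Epor rose by 0.31 ± 0.07 (limma adjusted p = 0.029), and Lmo2, a partner of the erythroid factors that is also made in endothelium, fell by 0.56 (limma adjusted p = 0.0139). Epor held its call only when MWF replicate 3, SHR replicate 2 or SHR replicate 3 was the array omitted (adjusted p otherwise up to 0.086). Gata1 and Klf1, the factors that switch on red cell genes, were at 0.61 ± 0.21 and 0.58 ± 0.23 without passing (limma adjusted p = 0.129 and 0.166). Epor (6.48 to 6.94), Gata1 (5.57 to 6.87) and Klf1 (6.36 to 7.67) lay below the array medians of 8.17 to 8.21 and may hold little signal.

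Of 18 regulators of the embryonic to adult change, 12 were measured and 6 of these lay above 0. Nr2c1, a nuclear receptor that binds epsilon and gamma globin promoters in human and mouse, rose by 0.30 ± 0.07 (limma adjusted p = 0.0437). Omitting a single array ended this call in 7 of 8 cases, all but SHR replicate 3 (adjusted p up to 0.118). Bcl11a and Sox6, repressors of embryonic globins in mouse and human, were at -0.13 ± 0.14 and -0.04 ± 0.07. Neither the 7 genes of haemoglobin and haem clearance nor the 3 measured globin-fold genes outside the clusters (Mb, Cygb and Ngb) had a call, with the smallest limma adjusted p of 0.166, for Lrp1, the receptor for haem bound to haemopexin, and 0.188, for Cygb.

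Markers of other cell types were read beside the globins. The mean of 13 liver markers was 8.79, 8.62, 6.64 and 7.72 in MWF, against 8.74, 7.61, 6.31 and 6.73 in SHR, with none called. All 13 lay above 0, with a median difference of 0.52, beside 56.3% and 0.02 over all gene-level probe sets. The strains overlapped in this mean, and MWF replicate 3 and SHR replicate 3 were the lowest of their strains. Albumin, secreted by liver, ranged from 9.35 to 12.17 in MWF and from 8.63 to 12.12 in SHR. The part of liver RNA in the globin difference was not tested.

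The mean of 7 adrenal and sympathetic markers was 7.70, 6.51, 6.57 and 6.68 in MWF, against 9.26, 6.41, 9.38 and 9.55 in SHR, with 5 of 7 below 0 and none called. SHR replicate 2 and MWF replicate 1 stood apart from their strains in these genes. With both left out, the differences were 2.51 for Hba-a3, 1.61 for Hbb-b1, 0.65 for Hbb, 1.32 for Hbg1, 0.57 for Hbe2 and 0.09 for Hbe1, and the call of Hbb was lost. The direction held for the 6 genes without these arrays.

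Blood also carries platelets and leukocytes. Of 12 platelet and megakaryocyte markers 3 were measured, and Gp9, a platelet surface protein, rose by 0.31 ± 0.06 (limma adjusted p = 0.022), and this call held only when MWF replicate 3, SHR replicate 1 or SHR replicate 2 was the array omitted. Pf4 and Ppbp, granule proteins of platelets, were at 0.04 ± 0.06 and 0.06 ± 0.14. Gp9 (6.34 to 6.80), Pf4 and Ppbp lay below the array medians of 8.17 to 8.21 and may hold little signal. Of 12 macrophage and leukocyte markers 11 lay below 0, while 56.3% of all gene-level probe sets lay above 0. Of the 12, 3 fell, beside 3.4% of all: Coro1a by 0.51, Lcp1 by 0.66 and Adgre1 by 0.94 (limma adjusted p of 0.0041, 0.0059 and 0.0212). Adgre1 held its call only when MWF replicate 1, SHR replicate 1 or SHR replicate 2 was the array omitted (adjusted p otherwise up to 0.0576). The macrophage list mean was 7.19 to 7.63 in MWF, against 7.49 to 8.29 in SHR. All 9 measured endothelial markers lay below 0, with none called, at list means of 9.09 to 9.20 in MWF and 9.13 to 9.54 in SHR. The part of these cells in the globin difference was not tested.

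**Figure D4:**
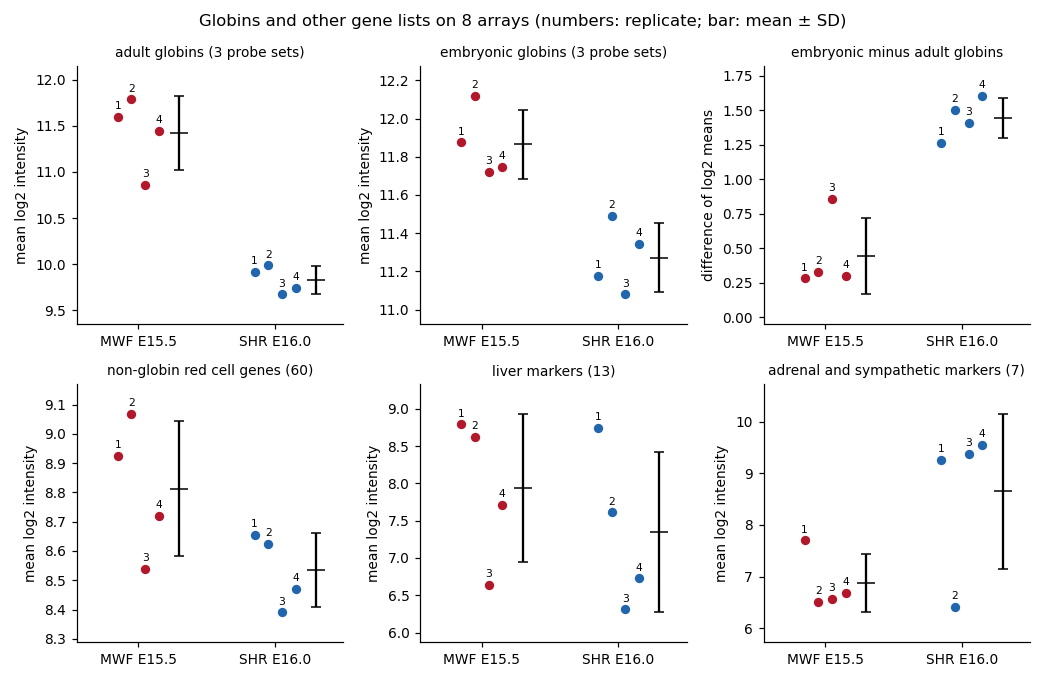
Mean gene-level log2 intensity per array (vertical axis, own scale in each panel) of the adult globins, embryonic globins, their difference, 60 non-globin red cell genes, 13 liver markers and 7 adrenal and sympathetic markers, for 4 MWF (left, red) and 4 SHR arrays (right, blue), with mean ± SD bars. At gene level adult globins, embryonic globins and their difference separate the strains, whereas the red cell, liver and adrenal lists overlap. SHR replicate 2 stands apart in the adrenal markers at 6.41. At exon level (not drawn) the difference overlaps. The exon-level adult mean overlaps when all probe sets are averaged and is separated by 0.0066 with medians per symbol.

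Kidney markers were measured to check the labelled tissue. Of 14 kidney markers 11 were measured, with list means of 9.33 to 9.53 in MWF and 9.17 to 9.37 in SHR. Of the 11, 9 lay above 0 (81.8%), with a median of 0.15. The share above 0 was 80.0% for the non-globin red cell genes and 56.3% over all gene-level probe sets. Among the 11, 1 rose, the tubule cadherin gene Cdh16, by 0.44 ± 0.09 (limma adjusted p = 0.0217). This call held only when MWF replicate 1, MWF replicate 4 or SHR replicate 2 was the array omitted.

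Setting the strain difference aside, the genes whose deviations from their strain mean followed the mean deviation of the 6 globin probe sets most closely over the 8 arrays were Glrx5 (r = 0.985), which acts in iron-sulphur cluster assembly and haem synthesis, and Alas2 (r = 0.978). The other 8 of the 10 highest were Crnkl1, Atp6v1a, Pdha1, Fbxo7, Nop58, Alg2, mrpl24 and Pfn2, with r from 0.93 to 0.97. The likeness was ranked over 7404 probe sets of 1 symbol on 8 arrays. Of these probe sets 24 exceeded 0.9, and the ranking is a description without a test. Following the globins within strains did not mean a higher level in MWF. Glrx5 was at -0.09 ± 0.11 between the strains, while Alas2 was at 0.80 ± 0.22. The other 8 lay between -0.61 and -0.06, of which Atp6v1a and mrpl24 fell, by 0.61 and 0.31 (limma adjusted p of 0.0022 and 0.0445).

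The nearest measured genes outside the clusters were read for comparison. On chromosome 10 these were Luc7l, Fam234a and Rgs11 on the Hbq1 side and Nprl3, Mpg and Rhbdf1 on the Hbz side, and their differences lay between -0.11 and 0.16. On chromosome 1 they were Or51ab3, Or52e2 and Or51e1 on the Hbb-bs side and Or52ac1, Or56b2b and Fhip1b on the Hbe1 side, with differences between -0.86 and 0.22. None of the 12 passed limma's threshold (smallest adjusted p = 0.166, for Luc7l). The genes named Or had mean intensities of 5.85 to 6.62, below the array medians of 8.17 to 8.21, and may hold little signal.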

How the data were processed

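Total RNA of male embryonic kidneys was labelled with biotin and hybridised to rat gene arrays, per the labels' protocols. The authors deposited log2 intensities at 2 levels of summary of the same 8 arrays. Partek is the only tool in the submitters' processing notes, with no version; the sources used here do not give the authors' background correction or normalization. The log2 values look normalized between arrays, with gene-level medians of 8.17 to 8.21. Precision is limited by the number of arrays. Detection calls were not used.

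Gene symbols came from GEO's platform annotation and were brought up to date by RefSeq (GRCr8). At gene level 12936 probe sets had 1 symbol, 184 several and 8251 none. At exon level the numbers were 172924, 1661 and 38482. Probe positions were not used, and only the promoter windows carry coordinates, in GRCr8.

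Each table was fitted whole with limma 3.58.1 under R 4.3.3 (4 arrays against 4, Benjamini-Hochberg over all probe sets, threshold 0.05). Lists used the brightest probe set of each gene. Genes named are all members, the called genes of each list (at most 8, otherwise the 3 with the smallest p) and the 10 most like the globins; others were chosen after their values were seen. The members and lists were chosen with earlier results of these data known. Kdm1a stood in its list under 2 names and was counted once. Simulated data held 200 changed probe sets. The gene-level fit over 21371 found 82% of those set to 0.5 and 96% of those set to 1, with 17 false calls. The exon-level fit over 213067 found 1% and 38%. The simulated noise was independent between probe sets, without deviations shared on an array, and the 200 were drawn at random from each table. These shares are therefore no guide to how many changed globin or red cell genes would be called. Alternatives were quantile normalization, a filter on dim probe sets, limma's trend and robust variance, array weights, a replicate block, arrays left out and medians of exon-level probe sets.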

Additional observations from a re-analysis of the deposited data

Results flagged for a closer look

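In groups of 4 arrays, the highest or lowest array was compared with the others by Dixon's ratio, and 6 values stood apart among 120 groups examined; chance alone flags about 1 in 20. The embryonic minus adult globin mean of MWF replicate 3 was 0.86, with the other MWF arrays between 0.28 and 0.33. Hbe1 in SHR replicate 2 was 13.95, with the other SHR arrays at 13.90. The adrenal and sympathetic mean of MWF replicate 1 was 7.70, with the other MWF arrays between 6.51 and 6.68, and that of SHR replicate 2 was 6.41, with the other SHR arrays between 9.26 and 9.55. In SHR replicate 2, Th was 6.34 and Chga 5.98, with the other SHR arrays between 11.55 and 11.77 and between 9.33 and 9.61.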

How the results depend on the processing

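At gene level 5 of 6 globin probe sets were called, 3 to 5 with an array left out (Hbb and Hbe2 were the calls lost), and 3 of 7 symbols with medians of exon-level probe sets. Their mean difference of 1.09 was 0.99 to 1.21 with an array left out and 0.51 with those medians, which cover other symbols. Hbe2 was 0.04 with those medians, and Hbe1 was 0.01 after quantile normalization. At exon level 4 of 34 were called, 7 with a trend and robust variance and 2 to 10 with an array left out. Over all gene-level probe sets 1407 were called, 872 without dim probe sets, 2397 with array weights, 752 with exon-level medians, 2180 without SHR replicate 2 and MWF replicate 1 together, and 775 to 2279 with an array left out. The 5 other red cell genes called became 12 with array weights and 3 to 12 with an array left out. Embryonic minus adult, -1.003, lay between -1.14 and -0.95 with an array left out and was 0.22 with exon-level medians. Those medians leave out Hba-a3 and Hbb-b1 and add Hba-a2 and Hbz, so these values do not compare the same genes. With the kidney number as a replicate block, 5 globin and 20 other red cell genes were called. Same-numbered kidneys correlated at 0.28, 0.15, 0.0982 and 0.16 in their deviations, and 5 of 8 samples correlated best with their own number. The labels do not say that a number marks a shared litter or day, and pairing was accepted only with every correlation over 0.1, so the fit without the block was kept; whether the kidneys are paired is not settled. The number of arrays limits precision.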
